A study of Mus musculus with 12 samples.

Results

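Fos, Fosb, Fosl2, Jun, Junb, Jund, Nr4a1, Nr4a2, Nr4a3 and Npas4 encode transcription factors. Most of these genes are switched on within minutes to hours of neuronal firing, while Jund is present at a steady level in resting cells. All were followed in the striatum of mice at 18 and 3 months of age. The mice carried the Huntington's disease mutation in their own Htt gene or were wild type. The 10 genes were taken by name, and each was represented by the brightest of the probe sets that the array's annotation maps to that gene alone. All 10 were measured, by 20 probe sets, out of 18193 genes represented and 45037 probe sets tested. No change in any of the 10 between genotypes or ages passed the test. Across mice of the same group, 42 of 45 pairs of members correlated positively, and no pair passed the test alone. The share of positive pairs among all genes was not computed, so this count is not shown to be particular to the members.

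FOS and JUN proteins pair through leucine zippers to form AP-1, which binds its target genes as a dimer. Calcium entry and cyclic AMP signalling reach these genes mainly through the factors CREB and SRF, already present in the resting cell, so that transcription starts without new protein synthesis. The NR4A proteins are orphan nuclear receptors and NPAS4 is a basic helix-loop-helix PAS factor that responds selectively to calcium. In the striatum, dopamine and glutamate reaching the projection neurons from the midbrain and the cortex are the classical inducers, and a stable splice form of Fosb accumulates with repeated stimulation.

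The mutant mice were homozygous for the HdhQ92/Q92 knock-in, in which a stretch of human HD exon 1 with 92 CAG repeats replaces the matching sequence of the endogenous gene, so that every cell that expresses Htt carries it. There were 3 Q92 mice at 18 months (567 to 596 days), 3 wild-type mice at 18 months (596 to 604 days), 3 Q92 mice at 3 months (100 to 103 days) and 3 wild-type mice at 3 months (100 to 103 days), all labelled C57BL/6. A mouse is named here by its group and animal number, as in Q92_18m_66 or wt_3m_438. The first 3 groups held 2 females and 1 male each, and the wild-type group at 3 months held 1 female and 2 males. RNA of the whole striatum of each mouse was hybridised to 1 array, and the mice had received no stimulus that the labels mention. Values are log2 expression summaries, p-values are from limma's test adjusted over all probe sets, and a gene rose or fell where its adjusted p was under 0.05. In bulk tissue, fewer cells of a type and less RNA per cell cannot be told apart.

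The DNA just upstream of these genes is shown because binding sites for CREB there are the known entry point of activity signals. The 250 bases before each transcription start came from RefSeq (build GRCm38.p6), and all 10 genes were matched. Each is written 5′ to 3′ on the strand of the gene, and capitals mark the core of the CREB site, TGACG, or its reverse complement CGTCA. Fos (chr12:85473640-85473889, plus strand), Junb (chr8:84978749-84978998, minus strand), Nr4a1 (chr15:101266596-101266845, plus strand) and Npas4 (chr19:4989972-4990221, minus strand) carry the core, and Jund (chr8:70697489-70697738, plus strand) does not.
Fos: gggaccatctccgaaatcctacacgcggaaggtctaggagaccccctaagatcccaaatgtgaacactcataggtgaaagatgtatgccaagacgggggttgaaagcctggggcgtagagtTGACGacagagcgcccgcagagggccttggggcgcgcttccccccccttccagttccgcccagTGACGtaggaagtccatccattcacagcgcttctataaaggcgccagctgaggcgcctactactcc
Junb: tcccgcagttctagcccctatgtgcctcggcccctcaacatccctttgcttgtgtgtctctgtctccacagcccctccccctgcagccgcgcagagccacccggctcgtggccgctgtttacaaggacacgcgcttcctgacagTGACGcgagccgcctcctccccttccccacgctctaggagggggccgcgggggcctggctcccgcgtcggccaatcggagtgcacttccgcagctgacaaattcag
Nr4a1: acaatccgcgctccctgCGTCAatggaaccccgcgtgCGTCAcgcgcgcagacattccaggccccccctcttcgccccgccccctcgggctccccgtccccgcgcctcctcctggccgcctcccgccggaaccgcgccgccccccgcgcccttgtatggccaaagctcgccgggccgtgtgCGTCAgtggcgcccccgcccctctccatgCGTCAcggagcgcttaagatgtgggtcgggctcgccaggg
Npas4: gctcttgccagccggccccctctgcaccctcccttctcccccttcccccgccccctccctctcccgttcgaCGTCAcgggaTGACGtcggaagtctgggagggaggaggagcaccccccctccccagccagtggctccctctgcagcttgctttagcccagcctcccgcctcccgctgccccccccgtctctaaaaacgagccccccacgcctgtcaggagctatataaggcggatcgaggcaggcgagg
Jund: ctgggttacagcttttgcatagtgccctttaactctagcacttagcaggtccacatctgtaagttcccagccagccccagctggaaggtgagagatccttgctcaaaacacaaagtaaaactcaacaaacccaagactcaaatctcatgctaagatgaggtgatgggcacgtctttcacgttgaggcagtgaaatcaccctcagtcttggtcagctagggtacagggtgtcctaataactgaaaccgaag

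The core was found, on either strand, in 7 of the 10 upstream windows, against 17.8% of 32851 windows of the same length in RefSeq. It occurred at 2 or more places in 5 of the 10, namely Fos, Nr4a1, Nr4a2, Nr4a3 and Npas4, against 3.9% of all windows. The 3 NR4A windows held 4 copies each, Fos and Npas4 held 2 each, Fosb and Junb held 1 each, and Fosl2, Jun and Jund held none. The full palindrome TGACGTCA, the AP-1 site TGAGTCA, the NR4A site AAAGGTCA and the SRF-binding CArG box were in none of the 10 windows, and in 1.55%, 4.46%, 1.34% and 1.47% of all windows, searched on both strands. These matches describe letters in a window and not bound sites. The windows compared were alike in length only and were not matched for base composition, and the core itself holds a CG. The part of base composition in these shares was not tested. Sequence beyond the 250 bases was not searched, so a site missing from a window can still lie farther away.

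The mutated gene itself checks little here, since the knock-in replaces a stretch of exon 1 and not the rest of the gene. Htt averaged 7.85 ± 0.14 in Q92 mice and 7.75 ± 0.06 in wild-type mice at 18 months, and 8.06 ± 0.03 in Q92 mice and 7.76 ± 0.14 in wild-type mice at 3 months (SD, n = 3 each). Neither difference passed limma's test (adjusted p = 0.883 and 1.00). Arrays correlated with each other at 0.983 to 0.995. A control probe set for 18S ribosomal RNA spanned 6.21 to 8.31 in Q92 and 5.64 to 5.75 in wild-type mice at 18 months, and 6.66 to 11.2 in Q92 and 5.28 to 8.70 in wild-type mice at 3 months. Ppp1r1b, which encodes the striatal signalling protein DARPP-32, stood between 9.49 and 10.5 in Q92 and between 10.9 and 11.1 in wild-type mice at 18 months, and between 10.9 and 11.3 in Q92 and between 10.8 and 11.2 in wild-type mice at 3 months. The projection neuron markers were lower in Q92 mice at 18 months: their mean deviation from the 12-array average lay between -1.10 and -0.38 in Q92 and between 0.10 and 0.24 in wild-type mice, with 13 of 13 lower. Of these 13, 1 passed limma's test after adjustment, beside 0.0533% of all probe sets. Markers of cortical excitatory neurons ranged more widely in the same Q92 mice, from -0.49 to 0.78, against -0.15 to 0.05 in wild-type mice. The part of the projection neuron shift in the results below was not tested. With the cortical marker mean as a covariate, the median log2 difference of the 10 members between Q92 and wild-type mice at 18 months was -0.33, against -0.11 without it, and no member passed.

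**Figure D1:**
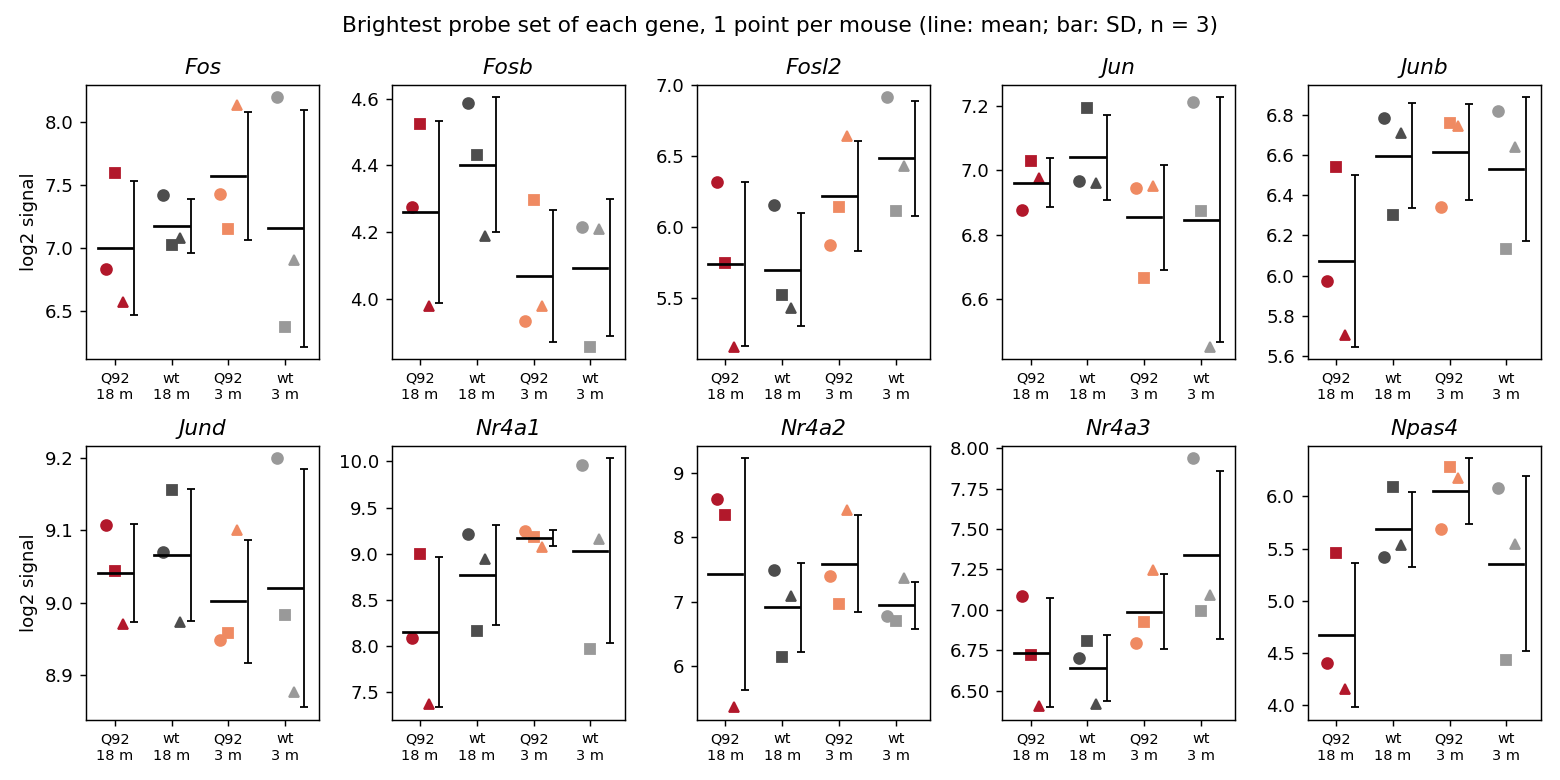
Log2 expression of each of the 10 genes (vertical axis) in every mouse, by group from left to right: Q92 at 18 months, wild type at 18 months, Q92 at 3 months and wild type at 3 months. Points are mice, marker shapes number the mice within a group, lines are means and bars are SD (n = 3). Nr4a2 and Nr4a1 spread most, over 3.24 and 2.59 log2 units, and Jund least, over 0.32.

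At 18 months none of the 10 genes differed between Q92 and wild-type striatum by limma's test (0 of 10 at an adjusted p under 0.05, beside 0.0533% of all probe sets called). Of the 10, 3 were higher and 7 lower in Q92 mice, with a median log2 difference of -0.11, against -0.00 over all represented genes. At an unadjusted p under 0.05, 2 of 10 passed, Npas4 and Junb, against 7.9% of all probe sets. Every one of the 10 had overlapping groups, while 14% of all genes had groups that did not overlap.

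Npas4, which controls the programme of inhibitory synapse genes after firing, had the largest difference. It stood at 4.41, 5.46 and 4.15 in Q92 mice and at 5.42, 6.09 and 5.54 in wild-type mice at 18 months. The values were low in Q92_18m_11 and Q92_18m_66, while Q92_18m_25 overlapped the wild-type range. Npas4 was read by a single probe set. Those low values were near 4.21, the 12-array mean of the dim gene Fosb, which 38.9% of probe sets did not exceed. The log2 difference was -1.01 (SE 0.39, 95% interval -1.86 to -0.15, unadjusted p = 0.0243, adjusted p = 0.547 by limma). Leaving out each mouse in turn gave differences from -1.40 to -0.75.

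Junb encodes a JUN protein induced early after stimulation, alongside Fos. Its values were 5.97, 6.54 and 5.70 in Q92 mice and 6.78, 6.30 and 6.71 in wild-type mice at 18 months. Again Q92_18m_11 and Q92_18m_66 were low and Q92_18m_25 lay within the wild-type range. The log2 difference was -0.53 (SE 0.23, 95% interval -1.02 to -0.03, unadjusted p = 0.0386, adjusted p = 0.604 by limma), and -0.34 without Q92_18m_66.

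Among the FOS genes, Fos, the classical marker of recent firing, stood at 6.83, 7.60 and 6.57 in Q92 mice and at 7.42, 7.02 and 7.08 in wild-type mice at 18 months. Q92 values lay on both sides of the wild-type range, and the difference was -0.17 (95% interval -1.05 to 0.70, adjusted p = 0.964 by limma). Fosb, source of the stable splice form that builds up with repeated stimulation, was dim, below the median of all probe sets, at 4.26 ± 0.27 in Q92 and 4.40 ± 0.20 in wild-type mice (SD, n = 3 each). The array summaries give 1 value for the gene and do not separate its splice forms. Fosl2, which encodes the slower FOS protein FRA-2, stood at 6.32, 5.74 and 5.16 in Q92 and 6.16, 5.52 and 5.43 in wild-type mice, a difference of 0.04 (SE 0.30). The other 2 JUN genes were close between genotypes by the probe sets used. Jun, the strongest activator of the family, averaged 6.96 ± 0.08 in Q92 and 7.04 ± 0.13 in wild-type mice. Its dimmer probe set was higher in Q92 mice by 0.29, without overlap (adjusted p = 0.852 by limma). Jund, present at a steady level in resting cells, averaged 9.04 ± 0.07 in Q92 and 9.07 ± 0.09 in wild-type mice, and its difference of -0.03 had an interval of -0.24 to 0.19.

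The NR4A receptors differed in sign at 18 months. Nr4a1, expressed in projection neurons and controlled there by dopamine, stood at 8.08, 8.99 and 7.37 in Q92 and 9.21, 8.17 and 8.94 in wild-type mice. Q92_18m_11 and Q92_18m_66 lay below the whole wild-type range and Q92_18m_25 inside it. The difference was -0.62 (SE 0.46, adjusted p = 0.814 by limma). Without Q92_18m_66 it was -0.24. Nr4a2, known for its need in midbrain dopamine neurons and also expressed in deep cortex and claustrum, stood at 8.59, 8.35 and 5.35 in Q92 and 7.50, 6.14 and 7.08 in wild-type mice. The Q92 group therefore held both the 2 highest values and the lowest value of the 6 mice, and the difference of 0.52 (SE 0.69, adjusted p = 0.927 by limma) became 1.56 without Q92_18m_66 and -0.34 with the cortical marker covariate. The 3 bright Nr4a2 probe sets other than the one used followed it closely over the 12 arrays (r = 0.99, 0.96 and 0.94), while 2 dim ones did not (r = -0.17 and 0.02). Nr4a3 stood at 7.08, 6.72 and 6.41 in Q92 and 6.70, 6.81 and 6.42 in wild-type mice, a difference of 0.09 (SE 0.24).

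**Figure D2:**
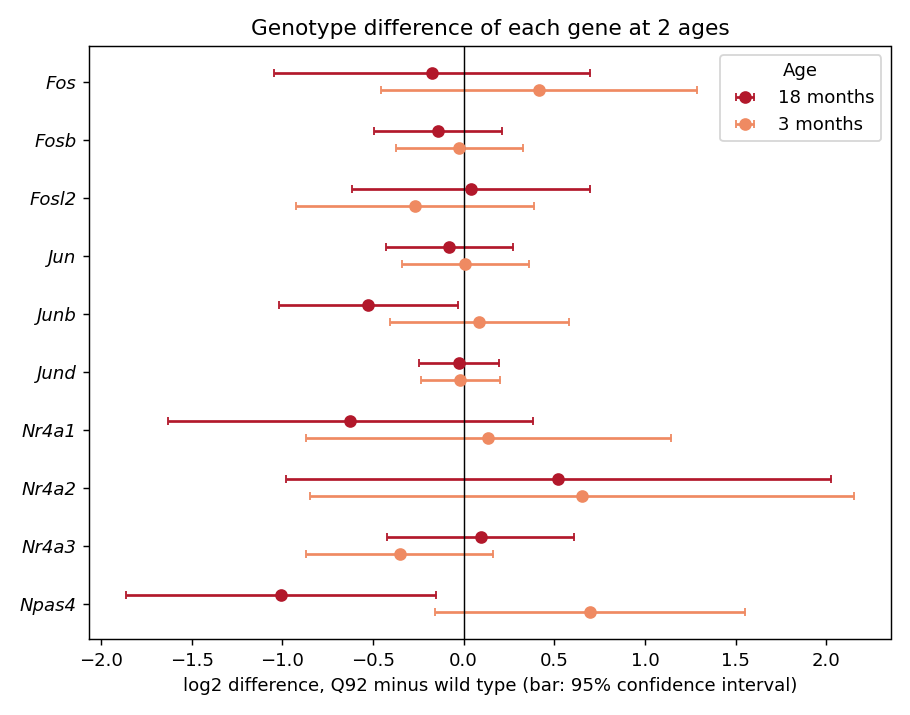
Difference between Q92 and wild-type mice in log2 units (horizontal axis) for each of the 10 genes, at 18 months (dark red, upper point of each pair) and at 3 months (orange, lower point), with 95% confidence intervals from the fit. Only the 18-month intervals of Npas4 and Junb leave out 0, and neither passes after adjustment.

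At 3 months 0 of 10 genes passed at either the adjusted or the unadjusted level, against 0.0111% and 2.64% of all probe sets. Of the 10, 6 were higher and 4 lower in Q92 mice, with a median difference of 0.05 against -0.02 over all represented genes, and all 10 had overlapping groups, as against 6.64% of genes without overlap. Npas4 stood at 5.69, 6.28 and 6.18 in Q92 and 6.08, 4.44 and 5.55 in wild-type mice, where wt_3m_438 was the low one. Its difference was 0.70 (95% interval -0.16 to 1.55, adjusted p = 1.00 by limma) and 0.24 without wt_3m_438. Fos stood at 7.43, 7.15 and 8.14 in Q92 and 8.19, 6.37 and 6.90 in wild-type mice, a difference of 0.42 (SE 0.40) that was 0.02 without wt_3m_438, 0.13 without Q92_3m_466 and 0.93 without wt_3m_436. The wild-type group alone held both the highest and the lowest of these 6 values. Nr4a1 stood at 9.24, 9.19 and 9.07 in Q92 and 9.96, 7.97 and 9.16 in wild-type mice, so the Q92 mice lay close together inside a wide wild-type range. Nr4a2 was 0.65 (SE 0.69), Nr4a3 -0.35 (SE 0.24) and Fosl2 -0.27 (SE 0.30) in the difference between Q92 and wild-type mice, and without wt_3m_436 these last 2 were both -0.05.

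Whether the Q92 difference changed with age was tested directly. No member passed (0 of 10, with 0% of all probe sets called), 2 were positive and 8 negative, and their median was -0.12 (-0.51 with the cortical marker covariate) against 0.02 over all genes. Npas4 had the lowest unadjusted p of the members, with a change of -1.71 (SE 0.56, 95% interval -2.91 to -0.50, unadjusted p = 0.00949, adjusted p = 0.946 by limma). It passed the unadjusted level alone among the 10, against 5.18% of all probe sets. Without Q92_18m_66 and wt_3m_438 together, an omission chosen after seeing the data, the change of Npas4 was -0.99.

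Ageing was compared within each genotype. In wild-type mice 0 of 10 members passed at 18 against 3 months, beside 0.0511% of all probe sets called, and 2 had an unadjusted p under 0.05, Nr4a3 and Fosl2, against 10.6% of all probe sets. Of the 10, 6 were higher and 4 lower at 18 months, with a median of 0.03 against -0.01 over all genes. Nr4a3 stood at 6.70, 6.81 and 6.42 at 18 months and 7.94, 6.99 and 7.09 at 3 months, without overlap, a pattern that 18.6% of all genes showed in this comparison. Its log2 difference was -0.70 (SE 0.24, unadjusted p = 0.0118, adjusted p = 0.352 by limma), and -0.40 without wt_3m_436. The other 2 probe sets of Nr4a3 gave -0.02 and -0.07. Fosl2 stood at 6.16, 5.52 and 5.43 at 18 months and 6.92, 6.11 and 6.43 at 3 months, a difference of -0.79 (SE 0.30, adjusted p = 0.409 by limma). Its dimmer probe set gave -0.37 without overlap (adjusted p = 0.376 by limma). The dimmer probe set of Jund gave -0.25 without overlap (adjusted p = 0.397 by limma), against 0.05 for the one used.

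In Q92 mice 0 of 10 members passed at 18 against 3 months, beside 0.206% of all probe sets called. Of the 10, 3 were higher and 7 lower at 18 months, with a median of -0.37 (-0.83 with the cortical marker covariate) against 0.01 over all genes, and 3 had an unadjusted p under 0.05 against 10.6% of all probe sets. In the same comparison 13 of 13 projection neuron markers were lower, with a median of -0.98, and Penk, Scn4b, Gpr6 and Rgs9 passed. Their mean deviation lay between -1.10 and -0.38 at 18 months and between 0.16 and 0.45 at 3 months, and its part in the members' values was not tested. Npas4 stood at 4.41, 5.46 and 4.15 at 18 months and 5.69, 6.28 and 6.18 at 3 months. All 3 older mice were below all 3 younger ones, and the log2 difference of -1.38 (SE 0.39, unadjusted p = 0.00419, adjusted p = 0.210 by limma) was the most extreme of the 10. Nr4a1 also did not overlap, at 8.08, 8.99 and 7.37 at 18 months and 9.24, 9.19 and 9.07 at 3 months, with a difference of -1.02 (SE 0.46, adjusted p = 0.466 by limma), and -0.63 without Q92_18m_66. Groups without overlap made up 17.5% of all genes in this comparison. Junb, the third, stood at 5.97, 6.54 and 5.70 at 18 months and 6.34, 6.76 and 6.75 at 3 months, with overlap and a difference of -0.54 (SE 0.23, adjusted p = 0.422 by limma), and -0.36 without Q92_18m_66. The dimmer probe set of Jund gave -0.23 with overlap (adjusted p = 0.421 by limma), against 0.04 for the one used.

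Single mice stood apart across the members. Q92_18m_66 was the lowest of its group in 9 of the 10 genes and the lowest of all 12 mice in 6. Mouse wt_3m_438 was the lowest of its group in 8, and wt_3m_436 was the highest of all 12 in 7. The mean deviation of the 10 members from the 12-array average was -0.76 in Q92_18m_66, -0.38 in wt_3m_438 and 0.51 in wt_3m_436. The same Q92_18m_66 was the lowest of the 12 in projection neuron markers, at -1.10, and in cortical markers, at -0.49, and the highest in thalamic markers, at 1.15, while its 18S value of 8.31 was the highest of its group. The part of the projection neuron and thalamic values in its low members was not tested.

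**Figure D3:**
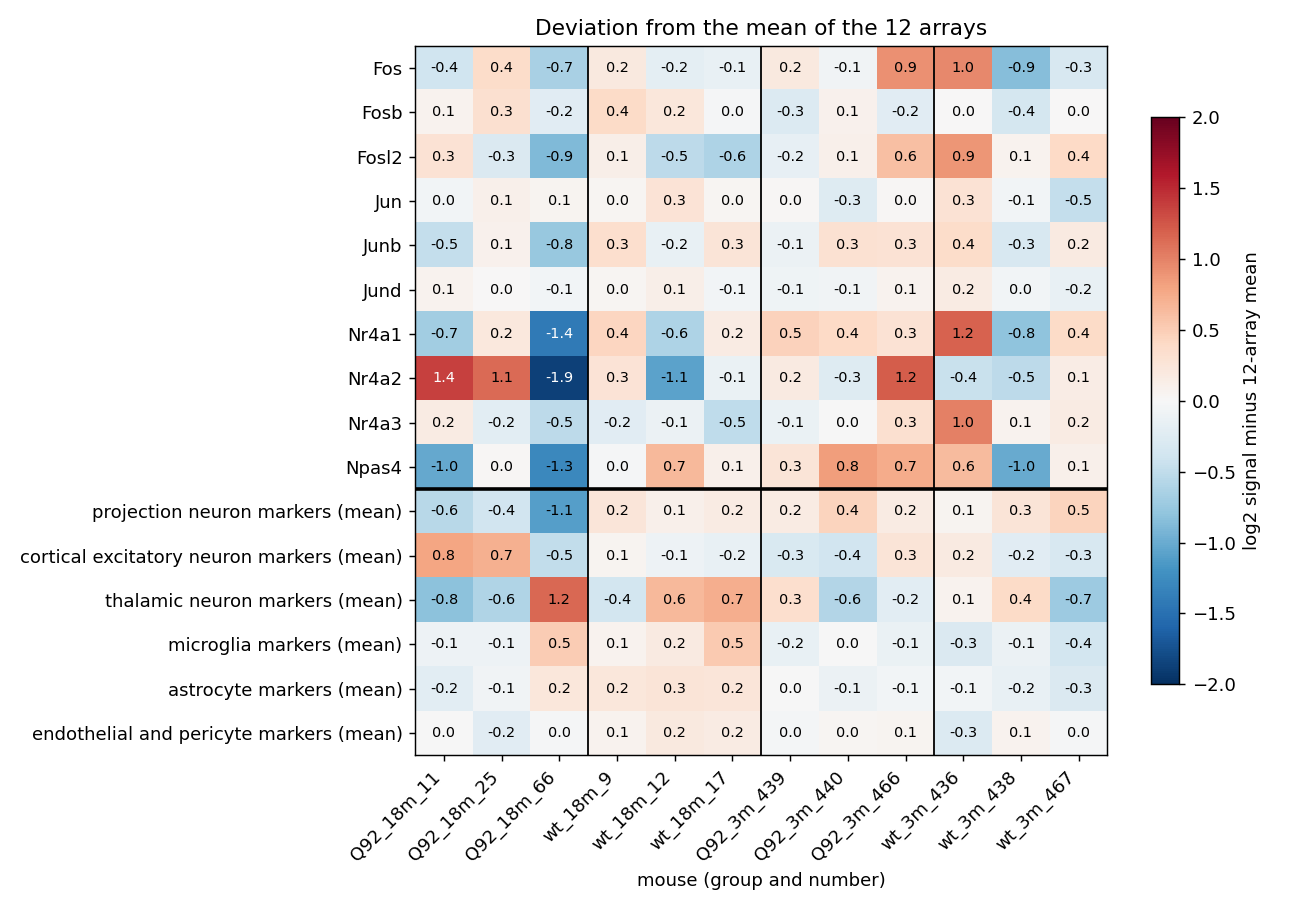
Deviation of each mouse from the 12-array mean in log2 units (colour) for the 10 genes and for the means of 6 marker lists (rows), with mice in columns by group. Q92_18m_66 is low in most members and in the projection neuron and cortical markers, and high in the thalamic markers.

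Deviations from the group means were then compared between members over the 12 mice. Of 45 pairs of members 42 correlated positively, with a median r of 0.55 and a range of -0.16 to 0.92. The same count was not made for pairs of other genes, so it is not shown to be particular to the members. No pair passed an exact permutation test of r, or of rho, within groups after adjustment over the 45 pairs. Jund and Nr4a3 correlated most (r = 0.92, exact permutation p = 0.00309, adjusted p = 0.116; rho = 0.85, exact permutation p = 0.00617, adjusted p = 0.152), and r was 0.89 without the 2 mice farthest from the median. Junb and Nr4a1 followed (r = 0.89, exact permutation p = 0.00694, adjusted p = 0.116; rho = 0.85, exact permutation p = 0.0147, adjusted p = 0.152), with r at 0.81 without Q92_18m_66 and wt_3m_438. Fos and Nr4a1 had r = 0.80 (exact permutation p = 0.0231, adjusted p = 0.203; rho = 0.75, exact permutation p = 0.0231, adjusted p = 0.152), with r at 0.61 without the 2 farthest mice. Jun and Nr4a2 were the least alike, at -0.16. Points share an array each, so anything that shifts a whole sample enters every pair. Other probe sets of Jund (r = -0.40) and Nr4a3 (r = -0.39 and 0.24) did not follow the ones used for the highest pair.

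**Figure D4:**
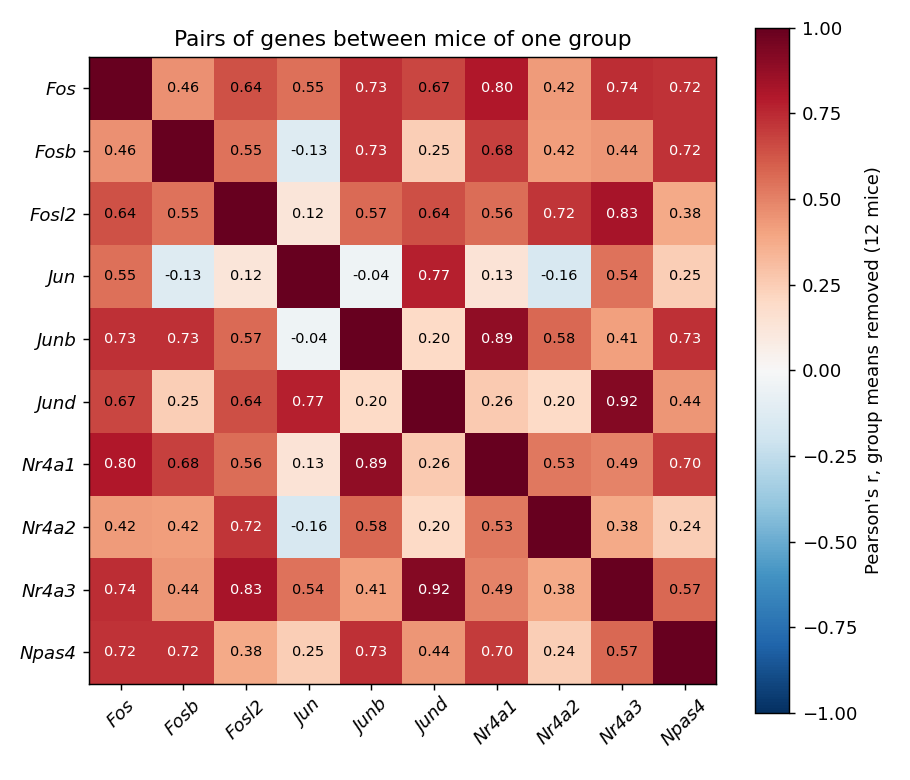
Pearson r (colour) between each pair of the 10 genes over 12 mice, after subtracting group means. Of the 45 pairs 42 are positive, and Jund with Nr4a3 is the highest at 0.92.

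Cortex borders the striatum, and each member was set against the mean of the cortical excitatory neuron markers across the same 12 mice, 10 relations in all. Adjustment was over these 10 relations. The share of all genes that would pass the same test was not computed, so a pass is not shown to be particular to the members. Fosl2 had r = 0.82 (exact permutation p = 0.00694, adjusted p = 0.036; rho = 0.76, exact permutation p = 0.0185, adjusted p = 0.0617) and 0.71 without the 2 farthest mice. Nr4a3 had r = 0.73 (exact permutation p = 0.0108, adjusted p = 0.036; rho = 0.78, exact permutation p = 0.00849, adjusted p = 0.0424) and 0.69 without them. Jund, the steadiest gene, had r = 0.65 (exact permutation p = 0.00926, adjusted p = 0.036; rho = 0.76, exact permutation p = 0.00386, adjusted p = 0.0386) and 0.71 without them. Other probe sets of Fosl2 (r = 0.24), Nr4a3 (r = -0.39 and 0.24) and Jund (r = -0.40) did not follow the ones used over the 12 arrays. The relations given here are therefore of the probe sets used. Nr4a2 had the highest r, 0.86, but did not pass (exact permutation p = 0.0571, adjusted p = 0.114; rho = 0.77, exact permutation p = 0.0525, adjusted p = 0.123), and r was 0.62 without Q92_18m_11 and Q92_18m_66. Npas4 was among those with a weak relation (r = 0.45, exact permutation p = 0.276, adjusted p = 0.307; rho = 0.31, exact permutation p = 0.471, adjusted p = 0.523).

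**Figure D5:**
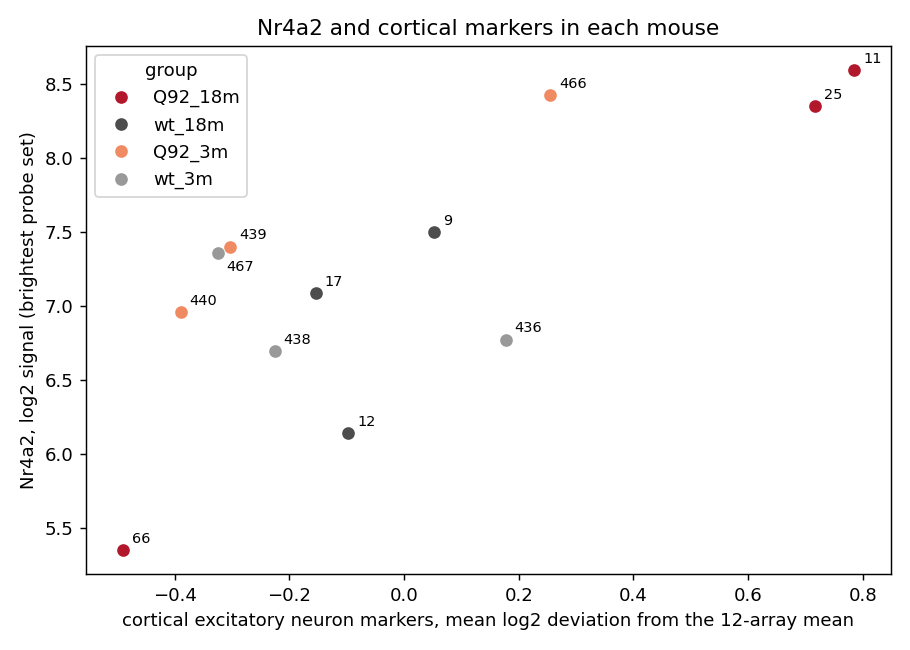
Nr4a2 in log2 units (vertical axis) against the mean deviation of the cortical excitatory neuron markers (horizontal axis), with each point a mouse labelled by its number and coloured by group. Q92_18m_11 and Q92_18m_25 are high in both and Q92_18m_66 low in both.

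The genes around these factors, listed with earlier results of these data known, gave few calls. Of the EGR family, zinc-finger factors induced by the same signals, 1 of 4 was higher and 3 were lower in Q92 than in wild-type mice at 18 months, with a median of -0.47 and none called. Egr2 had the largest difference, -1.01 (adjusted p = 0.391 by limma). In Q92 mice at 18 against 3 months all 4 were lower, with a median of -0.80, and Egr2 fell: it stood at 3.48, 4.39 and 3.70 at 18 months and 5.83, 5.90 and 6.15 at 3 months, a log2 difference of -2.11 (adjusted p = 0.0259 by limma). The difference stayed between -2.37 and -1.92 without each mouse in turn, though the adjusted p was between 0.0666 and 0.123 by limma without Q92_18m_11, Q92_18m_66, Q92_3m_439, Q92_3m_440 or Q92_3m_466. Egr2 was dim at 18 months: 26.2%, 41.8% and 29.7% of probe sets lay at or below it in the 3 Q92 mice, and no detection values were used here. In wild-type mice at 18 against 3 months 3 of the 4 EGR genes were also lower, with a median of -0.46 and none called. There Egr2 was at -0.94 (adjusted p = 0.349 by limma), and the test of whether its Q92 difference changed with age gave -1.17 (adjusted p = 0.946 by limma). Among 29 other activity-induced genes, 10 were higher and 19 lower in Q92 mice at 18 against 3 months, with a median of -0.20. The values of single genes that follow are from that comparison. Inhba, an activin subunit, fell by 0.76 on the log2 scale (6.93, 7.18 and 6.68 at 18 months, 7.69, 7.84 and 7.52 at 3 months, adjusted p = 0.0339 by limma). Its difference stayed between -0.88 and -0.63 without each mouse in turn, and was -0.32 with all its probe sets averaged. The adjusted p was above 0.05 with that average, with sex as a covariate, with only the arrays compared, and without any of Q92_18m_11, Q92_18m_66, wt_18m_9, wt_18m_17, Q92_3m_439, Q92_3m_440, wt_3m_436 or wt_3m_438; the wild-type mice enter this comparison only through the shared estimate of spread. Arc, which drives synaptic removal of AMPA receptors, was at -0.80 (adjusted p = 0.598 by limma) and Homer1, a scaffold with an activity-induced short form, at -0.60 (adjusted p = 0.168 by limma). Bdnf, a growth factor reaching the striatum mostly from the cortex, was at 0.71 (adjusted p = 0.507 by limma).

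Between Q92 and wild-type mice at 18 months, no gene of the 7 lists was called. Of the partner proteins of these factors, 11 other AP-1, ATF and small MAF genes divided into 6 higher and 5 lower (median 0.02). Of 5 RXR and ARNT partners 1 was higher and 4 lower; Rxrg, a retinoid receptor of projection neurons, was at -0.90 (adjusted p = 0.137 by limma). Of the 13 upstream transcription factors, 6 were higher and 7 lower (median -0.01), and of the 11 kinases 4 were higher and 7 lower. The kinases with the largest differences were Rps6ka5, which phosphorylates CREB and histone H3, at -0.55 (adjusted p = 0.189 by limma), and Camk4, a nuclear calcium-dependent CREB kinase, at -0.52 (adjusted p = 0.635 by limma). Among 29 other activity-induced genes 10 were higher and 19 lower, with Gadd45g at -0.51 and Pcsk1 at 0.51. Of 5 genes described as FosB targets in striatum 1 was higher and 4 lower. Among them Pdyn, the opioid precursor of direct-pathway neurons, was at -0.55 (adjusted p = 0.130 by limma). The list was not split by the direction of the described effect, so the count does not measure FosB activity.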

How the data were processed

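Total RNA of the striatum of 12 mice was measured on Affymetrix Mouse Genome 430 2.0 arrays, 1 per mouse. The deposited values are log2 expression summaries made by the authors with RMA in the affy package, per the submitters' processing notes; versions are not given in the sources used here. Because RMA normalises between arrays, a shift shared by all probe sets cannot be seen. They were used as deposited. Of 45101 probe sets, 64 controls were left out and 45037 tested with limma 3.58.1 (R 4.3.3), with a mean per group, all 12 arrays in 1 fit and Benjamini-Hochberg adjustment over all probe sets at 0.05. The fit had 8 residual and 4.50 prior degrees of freedom and a median SE of 0.122 for a difference between genotypes; the script was tested on simulated data. Probe sets were named from the platform annotation: 34945 had 1 gene, 932 several and 9160 none. The number of arrays limits the precision. Named genes were all members, Htt, and up to 4 per list with the largest differences, with 5 most like Fos. The members and lists were chosen with earlier results of these data known. Correlations used deviations from group means and exact permutation within groups (1296 arrangements). The labels give no batch, and mice were separate animals.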

Additional observations from a re-analysis of the deposited data

How the results depend on the processing

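The number of arrays, 3 per group, limits these results, and an uncalled difference does not show that the groups were alike. Alternatives covered quantile normalisation, a common median, leaving out dim probe sets (which removes Fosb), array weights, a robust prior with an intensity trend, covariates for sex, 18S and cortical markers, averaging probe sets, a block for age in days in the genotype comparisons, only the arrays compared, and leaving out each mouse. In all 121 alternative values over the 5 comparisons, the count of members that passed stayed 0; the lowest adjusted p of any member was 0.0945 by limma. The median difference of the 10 members shifted by less than the replicate spread in 119 of these and by more in 2, both with the cortical marker covariate: to -0.51 (main value -0.12) for the change of the Q92 difference with age and to -0.83 (main value -0.37) for 18 against 3 months in Q92 mice. The replicate spread is the pooled SD between mice of the members' mean deviation. It was wider than every main median except that for age in Q92 mice, so it is a loose limit. The median change with age reached 0.09 in the other direction within it. Without each mouse in turn the median ranged from -0.19 to 0.00415 at 18 months, -0.08 to 0.21 at 3 months, -0.42 to -0.04 for the change with age, -0.14 to 0.21 for age in wild-type mice and -0.55 to -0.14 for age in Q92 mice. Of single members whose difference exceeded its SE, 4 turned sign: Jun with age in wild-type mice, -0.00270 without wt_3m_467 and again without Q92_18m_66 and wt_3m_467 (main value 0.20; up to 0.38 without any other single mouse), and, without Q92_18m_66 and wt_3m_438, the change with age of Fos, 0.016 (main value -0.59), and of Nr4a1, 0.16 (main value -0.76). Pairs of mice to leave out together were chosen after seeing the data, and the cause was not tested. The median r between members was 0.51 after quantile normalisation and 0.41 without the 2 farthest mice. No paired analysis was possible because the numbers in the labels are animal numbers and none is shared between groups.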

Other observations

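Of 9088 genes above the median signal, those whose deviations from group means followed Fos most closely over 12 mice were Rlim (r = 0.965), Blcap (0.958), Npdc1 (0.954), Agap3 (0.950) and Atp6v0d1 (0.945). They were picked as the highest of many, so these values carry no test.

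Several members disagreed between their own probe sets over the 12 arrays. The dimmer probe set of Fosl2 correlated with the brighter one at 0.24, that of Jund at -0.40, and the other 2 of Nr4a3 at -0.39 and 0.24, whereas Jun's reached 0.81. At 18 months the dimmer Jun probe set was higher in every Q92 than in every wild-type mouse, by 0.29 (adjusted p = 0.852 by limma), while the brighter one was at -0.08.

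Fosl2 lies on chromosome 5, as does Htt, with 36 measured genes between them.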
